A study of Homo sapiens with 20 samples.

Results

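The genes described here make eicosanoids, the signalling lipids that cells form from arachidonic acid. They were chosen by name, with earlier results of these data known, and number 10 of the 57500 genes listed for each library. All 10 were listed in all 20 libraries. One gene releases arachidonic acid (PLA2G4A), 3 lead to prostaglandin E2 (PTGS1, PTGS2 and PTGES), and 6 belong to the lipoxygenase branch (ALOX5, ALOX5AP, ALOX12, ALOX12B, ALOX15B and LTA4H). The RNA came from NTERT cells, a human keratinocyte line kept dividing by hTERT, which had been differentiated into sheets before the experiment. WT cells carried a control sgRNA, and GCN2KO cells were an early-passage pool, not a clone, in which CRISPR/Cas9 had edited EIF2AK4, the gene of the eIF2 kinase GCN2. Each genotype was left unwounded or harvested 6 h after high-density wounding (HDW), a grid of scratches made with pipet tips that leaves many cells at a wound edge. Each of the 4 groups had 5 replicates, plated as such and described by the study as biological replicates. Whether they came from separate passages or days is not stated, so p-values set each difference against the spread between these samples only. The number of independent edits behind the GCN2KO libraries is not stated either. Loss of GCN2 and other differences between the cell pools therefore cannot be told apart.

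Cytosolic phospholipase A2 (PLA2G4A) cuts arachidonic acid from membrane phospholipids. The cyclooxygenases PTGS1, usually constitutive, and PTGS2, usually inducible, turn it into an unstable endoperoxide that the synthase PTGES converts to prostaglandin E2, a mediator that keratinocytes are known to release after injury. Lipoxygenases instead add oxygen at defined carbons: ALOX5, helped by its activating protein ALOX5AP, starts leukotriene synthesis, and LTA4H, a hydrolase, finishes leukotriene B4. ALOX12 and ALOX15B make hydroxylated arachidonate products, and ALOX12B works mainly on the linoleate of epidermal ceramides, a step that the skin barrier needs.

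The libraries held 14083504 to 34611570 counts, with a median of 23685751 in unwounded WT cells and of 33981257 to 34209033 in the other groups. EIF2AK4 lay between 3980.2 and 4555 normalized read counts in the 10 WT libraries and between 806 and 962 in the 10 GCN2KO libraries. A normalized read count is a raw count scaled by TMM (trimmed mean of M values) to the mean effective size of the 20 libraries. Among the GCN2KO libraries, unwounded replicate 1 and HDW replicate 5 stood apart from the rest of their groups for several of the 10 genes. ALOX15B stood at 467 in the former, against 201 to 258 in the other 4 libraries, and at 347 in the latter, against 143 to 174. PTGES, PTGS1 and LTA4H were also highest, and PLA2G4A and PTGS2 lowest, in these 2 libraries of their groups. Their EIF2AK4 counts of 806 and 814 lay within or below those of the other GCN2KO libraries. Values without them are given where a call rests on them.

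The promoters of the prostaglandin genes and of ALOX12B are shown first, because PTGS2 was the gene that rose in both genotypes, PTGS1 and PTGES fell in WT cells, and ALOX12B was the gene whose response to HDW differed between the genotypes. RefSeq windows (GRCh38.p14) were found for 8 of the 10 genes, among them 2 for PTGS1, and the 250 bases before each start are used, written 5′ to 3′ on the strand of the gene. Capitals mark matches on either strand to the TATA box TATAAA, the GC box GGGCGG, the NF-kB letters (GGGA and CC with any 4 bases between) and the antioxidant response letters TGACNNNGC. The windows lie at chr1:186680424-186680673 for PTGS2, chr9:122370283-122370532 and chr9:122375052-122375301 for PTGS1, chr9:129753043-129753292 for PTGES and chr17:8087717-8087966 for ALOX12B, of which PTGS1 is on the plus strand and the others are on the minus strand.
PTGS2: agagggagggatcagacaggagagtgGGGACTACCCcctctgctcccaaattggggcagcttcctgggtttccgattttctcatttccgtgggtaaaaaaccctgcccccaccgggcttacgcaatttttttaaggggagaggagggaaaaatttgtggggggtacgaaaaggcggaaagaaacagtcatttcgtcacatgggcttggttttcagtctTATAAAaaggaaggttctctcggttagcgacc
PTGS1 window 1: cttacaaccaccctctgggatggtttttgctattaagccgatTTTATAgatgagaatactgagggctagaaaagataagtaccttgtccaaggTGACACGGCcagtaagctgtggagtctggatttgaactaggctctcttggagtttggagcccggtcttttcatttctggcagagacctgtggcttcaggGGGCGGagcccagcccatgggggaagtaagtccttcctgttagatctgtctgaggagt
PTGS1 window 2: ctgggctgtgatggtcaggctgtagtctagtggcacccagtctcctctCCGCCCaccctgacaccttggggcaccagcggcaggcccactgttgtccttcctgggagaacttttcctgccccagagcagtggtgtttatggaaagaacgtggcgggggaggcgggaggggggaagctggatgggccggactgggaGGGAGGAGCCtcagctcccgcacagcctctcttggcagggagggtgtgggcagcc
PTGES: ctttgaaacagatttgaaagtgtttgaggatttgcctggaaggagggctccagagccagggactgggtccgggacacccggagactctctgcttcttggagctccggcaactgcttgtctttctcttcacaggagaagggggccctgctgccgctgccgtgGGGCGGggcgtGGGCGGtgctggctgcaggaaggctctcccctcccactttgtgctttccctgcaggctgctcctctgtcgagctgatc
ALOX12B: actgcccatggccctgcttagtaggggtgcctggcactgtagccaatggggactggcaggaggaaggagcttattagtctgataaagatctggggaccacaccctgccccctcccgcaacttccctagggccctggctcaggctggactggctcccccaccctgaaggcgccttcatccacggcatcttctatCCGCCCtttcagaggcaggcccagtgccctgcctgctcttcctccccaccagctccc
PTGS2 has TATAAA at -32, counted from the last base before the start as -1, and GGGACTACCC at -224. The first PTGS1 window holds TATAAA only on the opposite strand at -208, with GGGCGG at -58 and TGACACGGC at -157. The second holds CCGCCC at -202 and GGGAGGAGCC at -55. PTGES has GGGCGG at -89 and -78 and no TATAAA, and ALOX12B has only CCGCCC at -57. Of the windows not shown, ALOX12 has GGGCGG at -88 and -52 and the NF-kB letters on the opposite strand at -229. ALOX5AP has TGACATTGC at -131, and PLA2G4A and LTA4H have no match. Of all 34943 windows of this length, 10.8% hold TATAAA, 42.5% GGGCGG, 22.6% the NF-kB letters and 10.9% TGACNNNGC on either strand. The AP-1 letters TGANTCA (6.59% of windows), the CRE TGACGTCA (1.63%), the E-box CACGTG (6.32%) and the letters TGATGNAA bound by C/EBP-ATF pairs (3.15%) were absent from all 9 windows of the 8 genes, which says only that these letters are not in this stretch. None of the marked matches overlapped another.

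The 10 transcripts differed widely in level. Levels between genes are given as TPM, a read share per length that sums to the same total in each library, with the exon length of each gene from GENCODE release 44, the source of the gene positions below. In unwounded WT cells PTGES led with 1245 ± 44.8 TPM (SD, n = 5), followed by LTA4H with 126 ± 9.47, ALOX15B with 62.0 ± 4.44, PTGS2 with 21.6 ± 1.64, PLA2G4A with 13.1 ± 0.677 and ALOX5AP with 4.75 ± 0.891 TPM. The ranges of these neighbours did not overlap. PTGS1 (2.12 ± 0.203 TPM), ALOX5 (2.01 ± 0.213) and ALOX12B (1.73 ± 0.484) had overlapping ranges, and ALOX12 was lowest at 0.619 ± 0.153 TPM. PTGES and LTA4H, which act last on their routes, were thus the most abundant transcript of their branch, and this held in all 4 groups. In WT cells after HDW, PTGS2 stood above ALOX15B, at 49.4 ± 3.45 against 35.5 ± 2.30 TPM, with no overlap. It was also above ALOX15B in GCN2KO cells after HDW without overlap, whereas in unwounded GCN2KO cells the ranges of the pair overlapped, with unwounded replicate 1 the highest for ALOX15B.

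**Figure D1:**
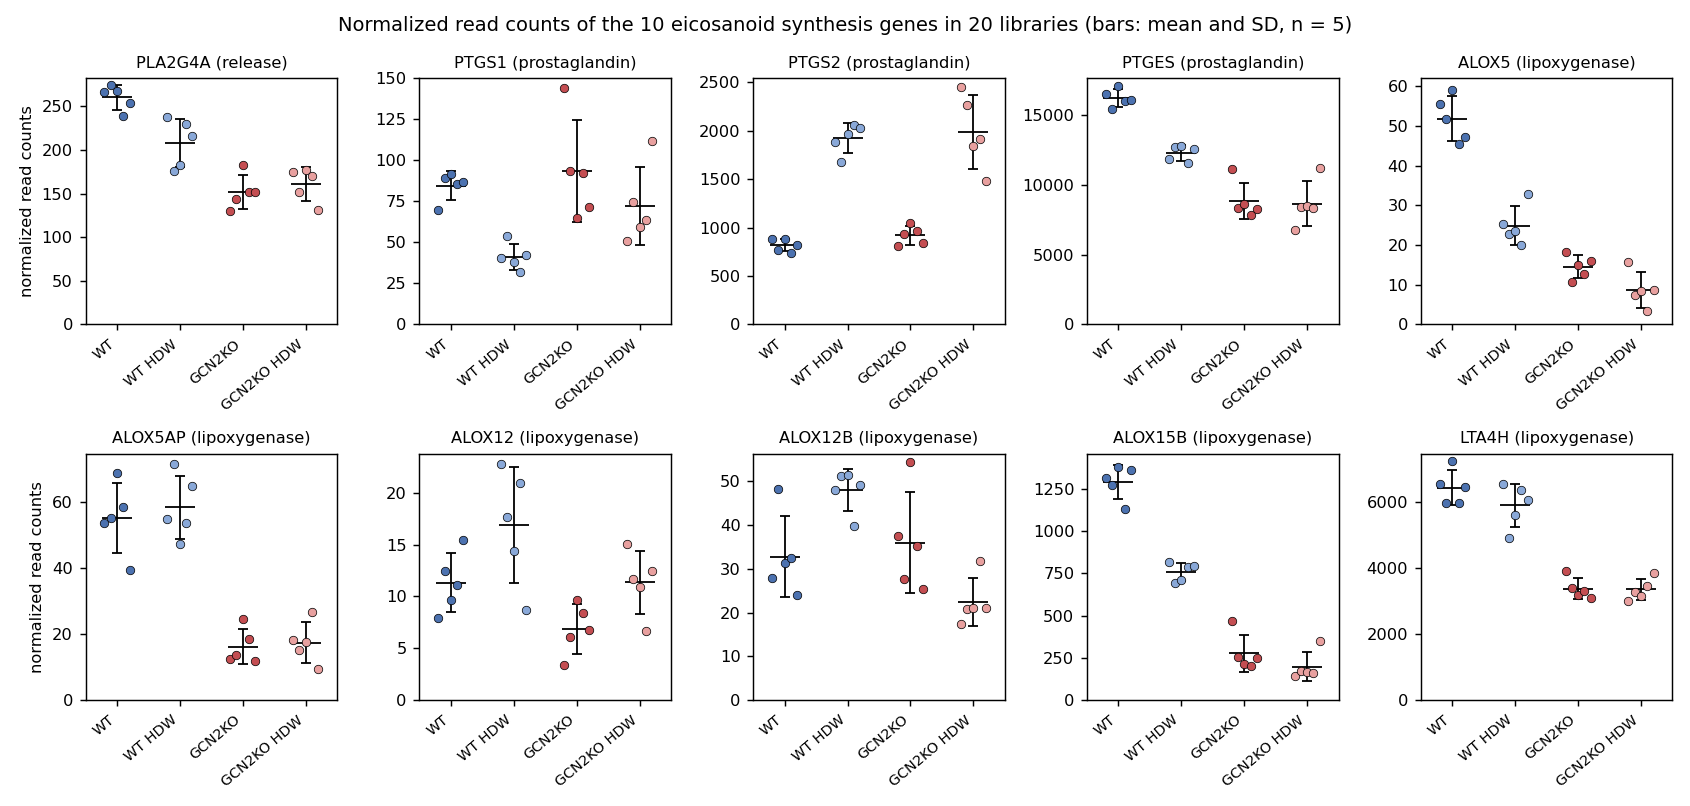
Each panel plots the normalized read counts (y axis, linear, from 0) of 1 gene in the 4 groups (x axis), with a point for each of 5 libraries and bars for the mean and SD. PTGS2 is higher in both HDW groups, at 1676 to 2065 in WT cells against 742 to 883 without a wound, while ALOX5, ALOX5AP, ALOX15B and LTA4H are lower in both GCN2KO groups than in both WT groups.

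HDW in WT cells raised PTGS2 and lowered PTGS1 and PTGES, the other genes of the prostaglandin branch. The 4 comparisons of groups that follow share libraries, so each is given with its own values. Of the 10 genes, 2 passed the adjusted p upward and 5 downward, against 26.1% and 25.2% of the 15348 genes tested. The median log2 fold change of the 10 was -0.22, and that of all genes tested was -0.0024. PTGS2 (ENSG00000073756, chr1:186671791-186680922, minus strand) stood at 880.4, 767, 883, 742 and 818 normalized read counts in unwounded WT replicates 1 to 5. After HDW the 5 WT libraries held 1882, 1676, 1971, 2065 and 2029.9. All wounded libraries exceeded all unwounded ones, by 2.35-fold (log2 fold change 1.24, SE 0.062, adjusted p = 7.2e-10, edgeR's quasi-likelihood test with Benjamini-Hochberg adjustment, as in all that follows).

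The other cyclooxygenase moved the other way. PTGS1 (ENSG00000095303, chr9:122370530-122395703, plus strand) held 69.6, 89.2, 91.8, 85.5 and 86.7 counts in unwounded WT cells. After HDW it held 40.5, 53.8, 38.0, 31.9 and 42.4, so the groups did not overlap and the level was 2.05-fold lower (log2 fold change -1.04, SE 0.14, adjusted p = 1.71e-05). PTGES (ENSG00000148344, chr9:129738331-129753042, minus strand) fell from 16259 ± 629 to 12323 ± 560.0 counts without overlap (log2 fold change -0.40, SE 0.039, adjusted p = 6.18e-07). PLA2G4A (ENSG00000116711, chr1:186828949-186988981, plus strand), a neighbour of PTGS2 on chromosome 1, fell from 260.5 ± 14.2 to 208 ± 27.7, again without overlap (log2 fold change -0.32, SE 0.09, adjusted p = 0.00789). Of the 4 genes chosen for arachidonate release and prostaglandin E2 synthesis, PTGS2 was thus the one that rose. Over all genes tested, 19.2% were higher and 17.7% lower without overlap between these groups.

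In the lipoxygenase branch HDW lowered ALOX5 and ALOX15B in WT cells and raised ALOX12B. ALOX5 (ENSG00000012779, chr10:45374176-45446119, plus strand) held 55.6, 51.7, 59.2, 45.5 and 47.2 counts in unwounded WT cells. After HDW it held 25.3, 22.7, 23.6, 19.9 and 32.9, with every library below every unwounded one (log2 fold change -1.04, SE 0.16, adjusted p = 6.33e-05). ALOX15B (ENSG00000179593, chr17:8039034-8049134, plus strand) was the most abundant of the lipoxygenases, with 1312, 1272, 1377, 1127 and 1362 counts without a wound. It held 815, 693, 709, 786 and 791 counts after HDW, 1.70-fold lower without overlap (log2 fold change -0.77, SE 0.06, adjusted p = 6.28e-08). ALOX12B (ENSG00000179477, chr17:8072636-8087716, minus strand) rose from 32.8 ± 9.21 to 48.0 ± 4.76 counts, with overlapping ranges (log2 fold change 0.59, SE 0.17, adjusted p = 0.00919). ALOX5AP (ENSG00000132965, chr13:30713478-30764426, plus strand), ALOX12 (ENSG00000108839, chr17:6996049-7010754, plus strand) and LTA4H (ENSG00000111144, chr12:96000753-96043520, minus strand) did not pass, with log2 fold changes of 0.09 (SE 0.16, adjusted p = 0.672), 0.52 (SE 0.28, adjusted p = 0.138) and -0.13 (SE 0.071, adjusted p = 0.148). PTGS1 and ALOX5, both at -1.04, were the 2 genes of the 10 that met the DE threshold downward (an adjusted p that passes and at least a doubling or halving, 1.55% of all genes tested). Both lost that size, though not the adjusted p, without WT HDW replicate 4, and 1 of them without WT unwounded replicate 3.

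In GCN2KO cells HDW raised PTGS2 as well. Of the 10, 1 passed upward and 1 downward, near the 11.9% and 10.8% of the 15791 genes tested. A gene that did not pass is not thereby shown to be unchanged. PTGS2 held 814, 932, 1049.9, 968 and 837 counts in unwounded GCN2KO replicates. After HDW it held 2456, 2265, 1839, 1913 and 1482, 2.18-fold higher and without overlap, as were 7.52% of all genes tested (log2 fold change 1.12, SE 0.12, adjusted p = 0.000112). HDW replicate 5 was the lowest of the wounded libraries and still stood above every unwounded one. The interaction term, which tests the difference between the HDW effects of the genotypes in all 20 libraries, was -0.12 (SE 0.14, adjusted p = 0.581) for PTGS2, and leaving out single libraries gave -0.21 to -0.032. ALOX12B was the gene that passed downward, from 37.5, 27.6, 54.4, 35.3 and 25.3 counts without a wound to 17.5, 20.9, 21.0, 31.8 and 21.1 after HDW. The ranges overlapped (log2 fold change -0.73, SE 0.23, adjusted p = 0.0337), and the call was lost without any 1 of 6 of the 10 libraries, where the adjusted p reached 0.0947.

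The interaction passed edgeR's test for ALOX12B alone among the 10, against 11.2% of 16536 genes upward and 12.5% downward. It was -1.34 (SE 0.29, adjusted p = 0.00156), since ALOX12B rose in WT cells and fell in GCN2KO cells, and it passed under every alternative and without any single library (adjusted p 0.000232 to 0.00463). The exons of ALOX12B share 26.8% of their bases with ENSG00000214999 on the opposite strand, and since the counting strand is not stated, reads from this stretch cannot be told apart. That gene had mean counts of 10.6 and 26.3 in WT cells and 19.0 and 21.7 in GCN2KO cells, each without and with HDW. The terms of PTGES (0.37, SE 0.14, adjusted p = 0.0515), PLA2G4A (0.39, SE 0.15, adjusted p = 0.0559) and PTGS1 (0.68, SE 0.30, adjusted p = 0.0987) did not pass. In the same 20 libraries DESeq2 passed PTGES (adjusted p = 0.0448) and PLA2G4A (0.0461), as did edgeR with library size alone (0.024 and 0.021). Without a filter on low counts edgeR passed PTGES (0.015) and PTGS1 (0.0479). Without GCN2KO unwounded replicate 1 and HDW replicate 5, a choice made after their values were seen, the terms of PTGES, PLA2G4A and PTGS1 became 0.35 (adjusted p = 0.00492), 0.40 (adjusted p = 0.0382) and 0.67 (adjusted p = 0.0278), all 3 passing. For these 3 genes HDW lowered the level in WT cells, and in GCN2KO cells the log2 fold changes were -0.022 (SE 0.12, adjusted p = 0.916), 0.086 (SE 0.11, adjusted p = 0.61) and -0.34 (SE 0.24, adjusted p = 0.304). Over all genes 1851 interactions passed upward and 2075 downward, and with scaling by library size alone 2477 and 1510.

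For ALOX15B the response to HDW in GCN2KO cells depended on the libraries that stood apart. It held 467, 258, 212, 201 and 247 counts without a wound. It held 143, 174, 166, 159 and 347 after HDW (log2 fold change -0.46, SE 0.26, adjusted p = 0.208). Without HDW replicate 5 the log2 fold change was -0.77 (adjusted p = 0.021), and without both libraries it was -0.50 (adjusted p = 0.0122). ALOX5 had -0.64 (SE 0.29, adjusted p = 0.123) in GCN2KO cells, which passed without HDW replicate 1 at -0.96 (adjusted p = 0.0367), on 2 to 19 raw counts in the wounded libraries. The interaction terms of ALOX5 and ALOX15B were 0.39 (SE 0.33, adjusted p = 0.426) and 0.30 (SE 0.27, adjusted p = 0.465). ALOX5AP, ALOX12 and LTA4H did not pass in GCN2KO cells, at 0.033 (SE 0.28, adjusted p = 0.944), 0.73 (SE 0.29, adjusted p = 0.0779) and -0.0012 (SE 0.083, adjusted p = 0.994).

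**Figure D2:**
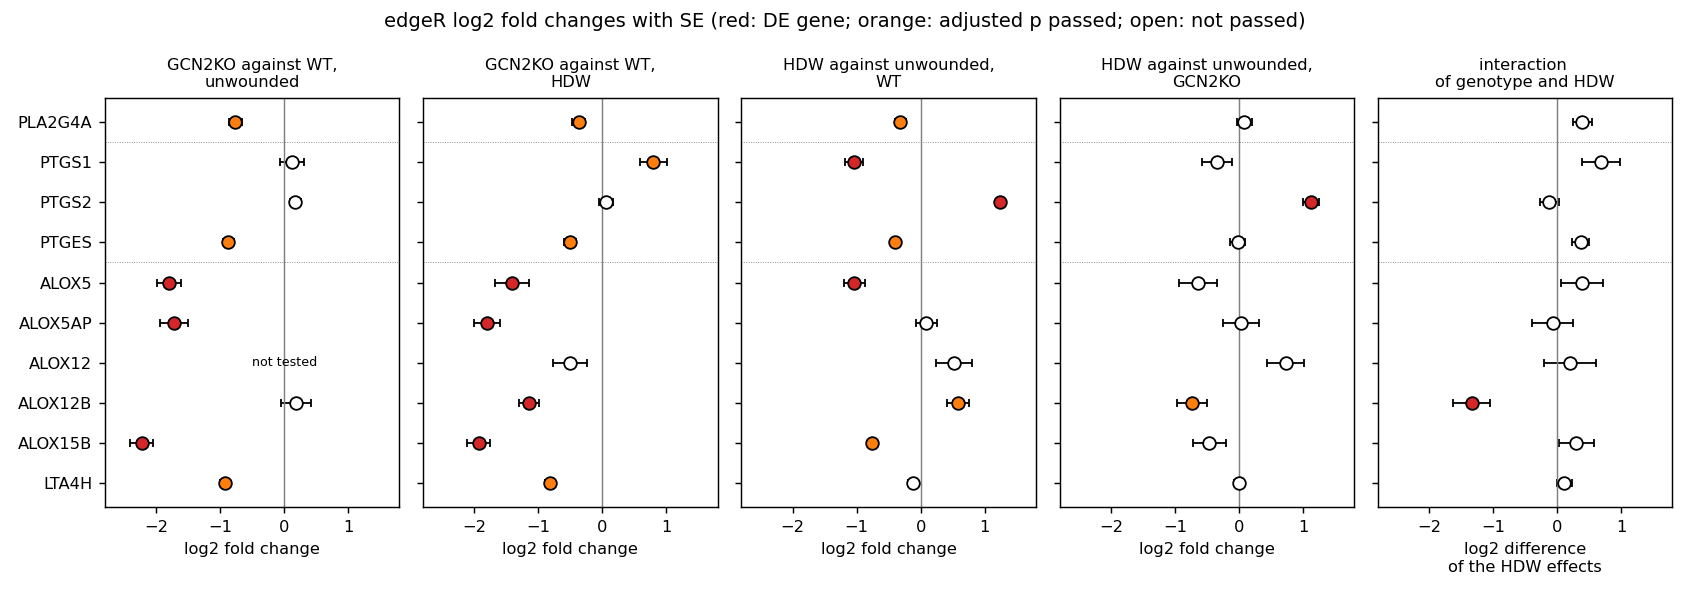
Points give the log2 fold change of each gene (y axis, ordered as release, prostaglandin and lipoxygenase branch, parted by dotted lines) with its SE in 4 comparisons, and in the last panel the difference between the HDW effects of GCN2KO and WT cells. PTGS2 is filled red to the right in both HDW panels at 1.24 and 1.12, and in the genotype panels the filled points of the lipoxygenase branch all lie to the left of 0.

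Without a wound, 4 of the 5 lipoxygenase branch genes that could be tested had less RNA in GCN2KO cells than in WT cells, as did only PTGES of the prostaglandin branch. Of the 9 genes tested, 0 passed upward and 6 downward, against 33.4% and 33.1% of 15348 genes. At an unadjusted p under 0.05, 1 of the 9 (PTGS2) was higher, and DESeq2 called 0 upward. Of the 6, 3 were DE genes downward, against 8.22% of all genes tested. The median log2 fold change was -1.72 for the 5 lipoxygenase genes and 0.12 for the 3 prostaglandin genes, with 0.0042 for all genes. ALOX15B fell most: its counts in unwounded GCN2KO cells, 201 to 467, lay below the 1127 to 1377 of WT cells, 4.68-fold lower on average (log2 fold change -2.23, SE 0.17, adjusted p = 1.45e-08). Without unwounded replicate 1 the log2 fold change was -2.50.

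Both genes of the first leukotriene step were low. ALOX5 held 18.2, 10.7, 14.9, 12.6 and 16.0 counts in unwounded GCN2KO cells, 3.48-fold lower than in WT cells (log2 fold change -1.80, SE 0.18, adjusted p = 2.76e-07). ALOX5AP held 53.7, 55.3, 68.8, 58.5 and 39.5 counts in unwounded WT cells. In GCN2KO cells it held 12.5, 13.8, 24.6, 18.5 and 11.8, 3.29-fold lower (log2 fold change -1.72, SE 0.22, adjusted p = 4.66e-06). Neither gene overlapped between the genotypes. LTA4H fell from 6441 ± 527 to 3384 ± 322 counts, also without overlap (log2 fold change -0.92, SE 0.078, adjusted p = 3.41e-08); 12.5% of its exonic bases are shared with opposite-strand genes that had at most 7 counts in a library. ALOX12B held 25.3 to 54.4 counts against 24.1 to 48.2 (log2 fold change 0.19, SE 0.24, adjusted p = 0.496). ALOX12, with 7.95 to 15.4 and 3.41 to 9.65 counts, was too low for the filter on low counts in this comparison, and 18.5% of its exonic bases are shared with genes on the opposite strand, among them ALOX12-AS1 with 10 to 55 counts in a library.

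Upstream of the cyclooxygenases, PLA2G4A held 266, 275, 268, 239 and 254 counts in unwounded WT cells. It held 129.6, 144, 182, 151 and 152 in unwounded GCN2KO cells, 1.70-fold lower without overlap (log2 fold change -0.76, SE 0.098, adjusted p = 4.26e-06). PTGES held 15433 to 17140.0 counts in unwounded WT and 7859 to 11132 in unwounded GCN2KO cells, without overlap (log2 fold change -0.87, SE 0.087, adjusted p = 2.41e-07). The cyclooxygenases between these steps did not pass. PTGS1 had 0.12 (SE 0.19, adjusted p = 0.592), with replicate 1 of the GCN2KO cells at 144 and the other 4 at 64.9 to 93.5. PTGS2 had 0.18 (SE 0.082, adjusted p = 0.0689) and passed without GCN2KO unwounded replicate 1 or 5, where the log2 fold change was 0.21 (adjusted p = 0.0286 and 0.0352).

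After HDW 5 of the 6 lipoxygenase branch genes were lower in GCN2KO cells, ALOX12B among them. All 10 genes were tested, of which 1 passed upward and 7 downward, against 35.9% and 35.8% of 15855 genes. Of the 7, 4 were DE genes downward, against 7.83% of all genes, and all 4 belong to the lipoxygenase branch. The median log2 fold change was -1.28 in the lipoxygenase branch and 0.052 in the prostaglandin branch, with 0.002 for all genes. ALOX15B was at -1.94 (SE 0.18, adjusted p = 3.74e-07), ALOX5AP at -1.80 (SE 0.20, adjusted p = 2.2e-06), ALOX5 at -1.41 (SE 0.27, adjusted p = 0.000264) and LTA4H at -0.82 (SE 0.08, adjusted p = 5.34e-07), all 4 without overlap between the genotypes. ALOX12B held 48.1, 51.3, 51.5, 39.9 and 49.3 counts in WT cells after HDW. None of the GCN2KO libraries, which held 17.5 to 31.8, reached these values, a 2.22-fold difference (log2 fold change -1.15, SE 0.16, adjusted p = 1.29e-05). ALOX12 did not pass, at -0.51 (SE 0.27, adjusted p = 0.104), and passed at -0.68 (adjusted p = 0.0193) without WT HDW replicate 5.

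Of the prostaglandin genes, PTGS2 levels after HDW were close in the 2 genotypes, with 1925 ± 156 counts in WT and 1991 ± 381 in GCN2KO cells (log2 fold change 0.051, SE 0.11, adjusted p = 0.682). The sign turned without GCN2KO HDW replicate 1, at -0.037. PTGS1 was the gene that passed upward, with 31.9 to 53.8 counts in WT and 50.9 to 112 in GCN2KO cells (log2 fold change 0.80, SE 0.21, adjusted p = 0.00363). Without HDW replicate 5 of the GCN2KO cells its log2 fold change was 0.58, still passing. PTGES remained lower in GCN2KO cells without overlap (log2 fold change -0.51, SE 0.097, adjusted p = 0.000307), and PLA2G4A was lower with overlapping ranges (log2 fold change -0.37, SE 0.11, adjusted p = 0.00679). Of the 10 genes, 6 were lower in GCN2KO cells without overlap in each state, against 27.0% of genes tested in unwounded cells and 29.3% after HDW.

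The branches were then compared as levels within each library. The summed TPM of the 2 cyclooxygenases was 23.7 ± 1.54 in unwounded WT cells, 50.4 ± 3.25 in WT cells after HDW, 25.2 ± 2.21 in unwounded GCN2KO cells and 54.4 ± 8.95 in GCN2KO cells after HDW. The summed TPM of the 4 lipoxygenases was 66.4 ± 4.43, 39.8 ± 2.30, 15.3 ± 5.01 and 11.7 ± 4.22 in the same order. Cyclooxygenase level thus followed the wound and lipoxygenase level was lower both with the wound in WT cells and in GCN2KO cells. The ratio of cyclooxygenase to lipoxygenase TPM was 0.339 to 0.373 in unwounded WT libraries, 1.15 to 1.38 in WT libraries after HDW, 0.991 to 2.24 in unwounded GCN2KO libraries and 2.23 to 7.17 in GCN2KO libraries after HDW. The lowest value in each GCN2KO group came from the library that stood apart, without which the ranges were 1.68 to 2.24 and 5.0 to 7.17. PTGS2 made up 91.0 ± 1.20% of cyclooxygenase TPM in unwounded WT cells and 98.0 ± 0.563% after HDW. ALOX15B made up 93.4 ± 0.869% of lipoxygenase TPM in unwounded WT cells and 81.3 ± 6.60% in unwounded GCN2KO cells, so these ratios follow mainly these 2 genes. Summed over the whole branches, with PTGES and the leukotriene genes ALOX5AP and LTA4H included, the ratio of prostaglandin to lipoxygenase TPM did not rise with HDW in WT cells, at 6.13 to 6.96 without and 5.44 to 7.29 with a wound. In GCN2KO cells it was 8.01 to 8.78 and 8.39 to 9.55. The summed prostaglandin branch, in which PTGES has the highest level, was 1268 ± 46.1 TPM in unwounded and 969 ± 42.4 TPM in wounded WT cells, and 667 ± 96.7 and 720.2 ± 124 TPM in GCN2KO cells. Since the genes were chosen with results known, all these ratios and sums are given without a test.

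**Figure D3:**
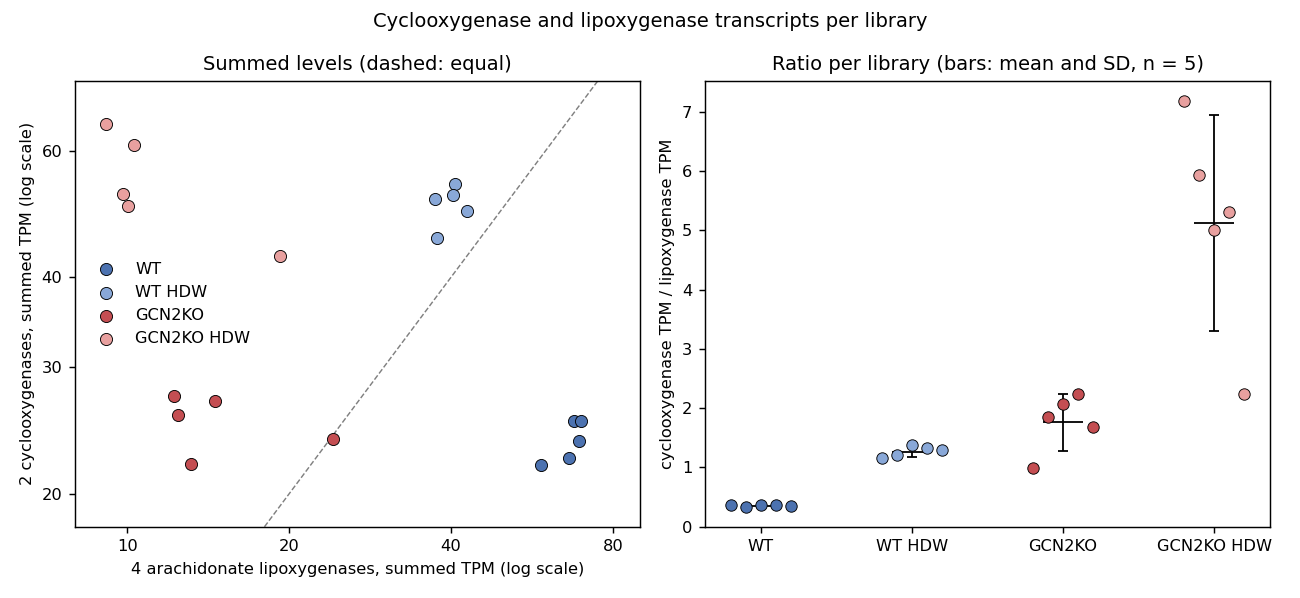
The left panel plots the summed TPM of PTGS1 and PTGS2 (y axis, log scale) against that of ALOX5, ALOX12, ALOX12B and ALOX15B (x axis, log scale) for 20 libraries, with a dashed line where both are equal, and the right panel plots their ratio per library with the mean and SD. Unwounded WT libraries lie right of the line with ratios of 0.339 to 0.373, and GCN2KO libraries after HDW reach 2.23 to 7.17.

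Among the receptors that read these products, transcripts for prostaglandin E2 and leukotriene B4 receptors were detected, and most others were near 0. Values in these paragraphs are log2 fold changes. Of 87 further genes of the pathway, 34 were too low to be tested in any comparison, among them the prostaglandin D synthases PTGDS and HPGDS, the leukotriene C4 synthase LTC4S and the cysteinyl leukotriene receptors CYSLTR1 and CYSLTR2, each with 0 to 2 counts in a library. Of the 9 prostanoid receptor genes, only PTGER2, PTGER4 and the thromboxane receptor TBXA2R (2 to 18 counts) reached a test, and the other 6 had at most 5 counts in a library. PTGER2, a prostaglandin E2 receptor that raises cAMP, held 43.4 to 57.6 counts in unwounded WT and 4.55 to 9.29 in unwounded GCN2KO cells, a log2 fold change of -2.72 (SE 0.21, adjusted p = 1.5e-08). After HDW it was lower in GCN2KO cells at -1.18 (SE 0.16, adjusted p = 1.75e-05), with a rise in them at 1.35 (SE 0.24, adjusted p = 0.00248) while WT cells had -0.21 (SE 0.15, adjusted p = 0.244). The interaction was 1.55 (SE 0.27, adjusted p = 0.000195). PTGER4, which couples in the same way, rose in WT cells at 1.57 (SE 0.18, adjusted p = 3.15e-06) and in GCN2KO cells at 0.64 (SE 0.20, adjusted p = 0.0335), with an interaction of -0.94 (SE 0.27, adjusted p = 0.0143). The rise in GCN2KO cells did not pass with the replicate block (adjusted p = 0.0646), without both libraries that stood apart (0.0762), or without any 1 of unwounded replicates 1, 3 and 5 and HDW replicates 1 to 4 (0.0515 to 0.0937). Of the 2 leukotriene B4 receptors, LTB4R was lower in unwounded GCN2KO cells at -1.72 (SE 0.12, adjusted p = 4.1e-09) and fell with HDW in WT cells at -1.23 (SE 0.09, adjusted p = 2.93e-08), with 0.18 (SE 0.13, adjusted p = 0.313) in GCN2KO cells and an interaction of 1.41 (SE 0.15, adjusted p = 4.35e-07). LTB4R2 was lower in unwounded GCN2KO cells at -1.03 (SE 0.17, adjusted p = 4.59e-05), with 58.9% of its exonic bases shared with LTB4R and other genes.

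The remaining genes of the pathway moved in both directions. In unwounded cells 49 of the 87 were tested, and 18 were higher and 21 lower in GCN2KO cells, against 33.4% and 33.1% of all genes. After HDW these were 20 and 22 of 51, against 35.9% and 35.8%. HDW raised 9 and lowered 24 of 49 in WT cells, against 26.1% and 25.2%, and raised 4 and lowered 10 of 53 in GCN2KO cells, against 11.9% and 10.8%. The median log2 fold changes in these 4 comparisons were -0.21, -0.17, -0.19 and -0.074. In the list of other lipoxygenase branch genes, HDW in WT cells lowered 7 and raised 2 of 9 tested (all genes 25.2% and 26.1%), and in GCN2KO cells it lowered 3 and raised 1 (all genes 10.8% and 11.9%). Of the 6 other prostanoid synthases tested, HDW raised 3 and lowered 2 in WT cells and raised 0 and lowered 2 in GCN2KO cells, to be read against the same shares. Arachidonate supply differed from PLA2G4A in part. MGLL, which frees arachidonate from monoacylglycerol, was higher in GCN2KO cells at 1.31 (SE 0.093, adjusted p = 4.29e-09) unwounded and at 0.49 (SE 0.060, adjusted p = 4.68e-06) after HDW. MGLL rose with HDW in WT cells at 1.21 (SE 0.078, adjusted p = 7.18e-09) and in GCN2KO cells at 0.41 (SE 0.075, adjusted p = 0.00301). PLA2G4F, another cytosolic phospholipase, was lower in GCN2KO cells at -1.30 (SE 0.18, adjusted p = 1.03e-05) unwounded and at -1.19 (SE 0.20, adjusted p = 0.00011) after HDW. PLA2G4B was higher in GCN2KO cells after HDW at 1.09 (SE 0.36, adjusted p = 0.0146) on 5 to 23 counts, a call lost without GCN2KO HDW replicate 2 (0.88, adjusted p = 0.0532), with 75.6% of its exonic bases shared with other genes.

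Other enzymes and carriers of the pathway were mixed. AKR1C3, a prostaglandin F synthase with close paralogs, fell with HDW in WT cells at -1.21 (SE 0.074, adjusted p = 4.72e-09) and in GCN2KO cells at -0.74 (SE 0.097, adjusted p = 0.000423). SLCO2A1, the prostaglandin uptake carrier, fell in WT cells at -1.56 (SE 0.26, adjusted p = 0.000141), with -0.13 (SE 0.30, adjusted p = 0.789) in GCN2KO cells. CBR3, a carbonyl reductase, was lower in GCN2KO cells at -1.50 (SE 0.26, adjusted p = 0.000104) unwounded and -2.39 (SE 0.21, adjusted p = 1.6e-07) after HDW, and 71.1% of its exonic bases are shared with its antisense gene. GGT1, which trims leukotriene C4, was lower at -1.26 (SE 0.13, adjusted p = 3.68e-07) and -1.09 (SE 0.078, adjusted p = 2.63e-08), with 56.5% of its bases shared with a gene on the same strand. CYP4F2 and CYP4F3, near copies that oxidize leukotriene B4, were higher in GCN2KO cells after HDW at 1.12 (SE 0.16, adjusted p = 2.67e-05) and 1.03 (SE 0.053, adjusted p = 1.5e-09). Both were already higher in unwounded GCN2KO cells, at 0.58 (SE 0.18, adjusted p = 0.00875) and 0.62 (SE 0.076, adjusted p = 2.63e-06). In WT cells both fell with HDW, at -0.73 (SE 0.18, adjusted p = 0.00272) and -0.57 (SE 0.038, adjusted p = 1.02e-08). EPHX2, a hydrolase of arachidonate epoxides, was lower in GCN2KO cells at -1.62 (SE 0.12, adjusted p = 8.87e-09) unwounded and -1.07 (SE 0.14, adjusted p = 1.29e-05) after HDW and fell with HDW in WT cells at -1.05 (SE 0.094, adjusted p = 2.65e-07). ALOXE3, which acts after ALOX12B in the barrier pathway, rose with HDW in WT cells at 1.04 (SE 0.12, adjusted p = 4.31e-06), as ALOX12B did, with 0.18 (SE 0.14, adjusted p = 0.361) in GCN2KO cells and an interaction of -0.87 (SE 0.19, adjusted p = 0.00134). Of the 10 barrier lipid genes listed, 6 were tested, and the interaction passed downward for 2 and upward for 0 with edgeR, against 12.5% and 11.2% of all genes.

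**Figure D4:**
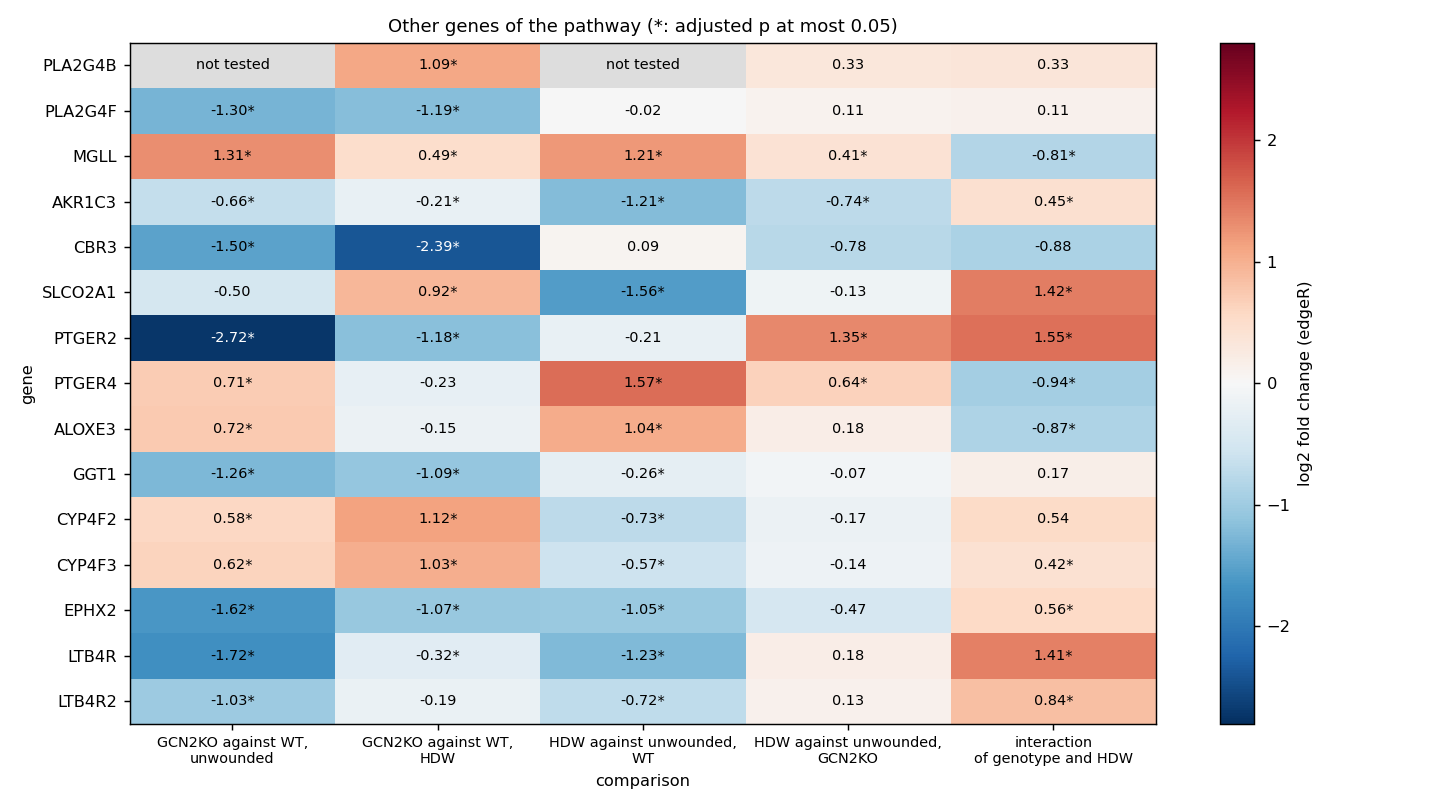
The colour and number in each cell give the edgeR log2 fold change of 1 of 15 other genes of the pathway (y axis) in a comparison (x axis), with an asterisk where the adjusted p was at most 0.05 and grey where the gene was not tested. PTGER2 has the deepest blue at -2.72 in unwounded GCN2KO cells, and PTGER2, SLCO2A1 and LTB4R show the strongest positive interactions at 1.55, 1.42 and 1.41.

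The cells were checked against keratinocyte and other markers, and in bulk RNA fewer cells of a type and less RNA per cell cannot be told apart. The 6 basal keratinocyte markers summed to 13109 to 19060 TPM in the 20 libraries, of which KRT5 made the largest part. In GCN2KO cells 5 of the 6 were lower and KRT5 higher in both states, with median log2 fold changes of -0.79 unwounded and -0.67 after HDW. COL17A1, a hemidesmosome collagen, fell most, at -1.36 (SE 0.085, adjusted p = 1.18e-09) without a wound. Between the genotypes these markers, except KRT5, were thus lower, as most of the lipoxygenase genes were. With HDW in WT cells, where ALOX5 and ALOX15B fell, 3 of the 6 passed upward and 1 downward, against 26.1% and 25.2% of genes. Their median log2 fold change was 0.15. In GCN2KO cells HDW raised 3 and lowered 0, against 11.9% and 10.8%, with a median of 0.22. The 13 differentiation markers summed to 410 to 545 TPM in WT and 755 to 1445 TPM in GCN2KO libraries, led by IVL, a cornified envelope precursor, whose log2 fold change was 1.83 (SE 0.13, adjusted p = 4.94e-09) in unwounded and 1.96 (SE 0.10, adjusted p = 1.92e-09) in wounded cells. That rise in the sum is IVL rather than the list: of 8 differentiation markers tested, 2 were higher (IVL and DSC1) and 4 lower (KRT1, FLG, SPINK5 and CALML5) in unwounded GCN2KO cells, with a median of -0.51, and 3 were higher and 4 lower after HDW, with a median of -0.16. The part of these marker differences in the lipoxygenase values was not tested. The leukocyte list, given because ALOX5, ALOX5AP and LTA4H are best known from leukocytes, summed to 142 to 164 TPM in unwounded WT, 76.1 to 87.4 in wounded WT, 59.2 to 107 in unwounded GCN2KO and 40.4 to 94.1 in wounded GCN2KO libraries. Of its 7 markers, 3 (PTPRC, LYZ and CD3E) had at most 2 counts in every library, while ITGAM reached 36 and CSF1R 35 raw counts. CD14, the largest part of the leukocyte sum, went from 1683 ± 105 counts in unwounded WT to 785 ± 247 in unwounded GCN2KO cells. Within each GCN2KO group it was highest in the library that stood apart, at 1209 and 957. LTA4H was also highest in both of these libraries, at 3928 and 3863 counts. ALOX5 was highest in GCN2KO unwounded replicate 1, at 18.2, and ALOX5AP was lowest in GCN2KO HDW replicate 5, at 9.58 counts. CD68 went the other way, from a mean of 3.25 TPM in unwounded WT to 5.99 in unwounded GCN2KO cells. Of 4 leukocyte markers tested, 1 was higher and 2 lower in unwounded GCN2KO cells, against 33.4% and 33.1% of all genes. After HDW 2 were higher and 1 lower, against 35.9% and 35.8%. The part of CD14 in these results was not tested. The 5 mast cell markers had no count in 3 groups, and the platelet marker GP9 was at 0 in every library. The 7 fibroblast markers summed to 9.23 to 16.9 TPM, the 5 melanocyte markers to 2.36 to 4.50, the 5 platelet markers to 0.990 to 3.07, and the 4 endothelial markers to at most 0.356 TPM.

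The genes most like PTGS2 and ALOX5 were sought among 16536 genes, by the root mean square difference of log2 CPM over the 20 libraries after centring each gene on its mean. Nearest to PTGS2 were CCN1 (0.18), MACC1 (0.20) and MFSD12 (0.22), where PTGS2 itself varied by 0.61 around its mean. Mean CCN1 counts were 418 and 968 in WT cells and 459.9 and 1185 in GCN2KO cells, each without and with HDW. Nearest to ALOX5, which varied by 0.95, were ID3 (0.32), ADA (0.32) and CDK18 (0.34). Mean ADA counts were 2463 and 1400.0 in WT cells and 639.9 and 444 in GCN2KO cells, again lower with HDW and lower in GCN2KO cells.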

How the data were processed

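RNA was measured in 20 NTERT libraries, WT and GCN2KO, unwounded or 6 h after HDW, 5 of each. Per the labels and the study's methods, the authors trimmed reads with Trimmomatic, used STAR for alignment to GRCh38, and had featureCounts assign reads with a unique position to exons. The deposited values are raw counts per Ensembl gene. Annotation release, counting strand and treatment of overlapping genes are not given in the sources used here. Of the 57500 genes, GENCODE release 44 gave symbols, positions and lengths for 56410, and 1090 had none.

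Groups were compared with edgeR 4.0.16 (R 4.3.3) by the quasi-likelihood test on the counts, with TMM and filterByExpr (minimum count 10, minimum total 15). Each comparison used its own 10 libraries, and the interaction all 20. P-values were Benjamini-Hochberg adjusted over all genes tested. A gene passed at an adjusted p of at most 0.05, and a DE gene had, besides, a log2 fold change of 1 or more up or down. The SE was taken as the fitted log2 fold change over the root of its F statistic. The procedure was tested on simulated data, with changes planted only in genes of higher counts. That test did not cover genes with counts as low as those of ALOX5 and ALOX12. Replicates differed by at least 2.56 in chi-square per gene, so none was counted as a repeat sequencing of 1 library. This does not show that they were separate cultures. In unwounded GCN2KO cells replicates 2 and 4 differed by 7.56 and replicates 3 and 5 by 9.49. Libraries of different pairs among these differed by 47.1 to 56.6.

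The 10 genes and all lists were chosen with earlier results of these data known. Text names all 10, EIF2AK4, the marker lists, the 3 genes most like PTGS2 and ALOX5, and other pathway genes that were DE genes in a comparison of 2 groups, at most 8 per comparison by adjusted p. The results were recomputed with DESeq2 1.42.0, with its size factors in edgeR, library size alone, no filter, a replicate block, all 20 libraries in one fit, TPM with the longest transcript and each library left out. Tables and figures used Python 3.11.15, pandas 2.3.3 and matplotlib 3.10.9.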

Additional observations from a re-analysis of the deposited data

Results flagged for a closer look

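In 5 of the 40 sets of 5 libraries (10 genes in 4 groups), 1 library lay far from the other 4, with a gap to its neighbour, as a share of the range, above Dixon's critical value for 5 values; chance alone gives this in about 1 set in 20. These were PTGES at 11132 and ALOX15B at 467 normalized read counts in GCN2KO unwounded replicate 1, ALOX15B at 347 in GCN2KO HDW replicate 5, ALOX12B at 31.8 in GCN2KO HDW replicate 4 and, as a low value, PTGS1 at 69.6 in WT unwounded replicate 1. Of these, 3 came from the 2 GCN2KO libraries described above.

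The interaction of genotype and HDW passed the adjusted p of edgeR for ALOX12B at -1.34 on the log2 scale. Of the 53 other pathway genes tested, it passed upward for 10 and downward for 7. Among the 15 of them named here, which had been picked as DE genes in a comparison of 2 groups, it passed upward for PTGER2 at 1.55, SLCO2A1 at 1.42, LTB4R at 1.41, LTB4R2 at 0.84, EPHX2 at 0.56, AKR1C3 at 0.45 and CYP4F3 at 0.42, and downward for PTGER4 at -0.94, ALOXE3 at -0.87 and MGLL at -0.81. The EPHX2 interaction was lost without any 1 of 9 of the 20 libraries (WT unwounded replicates 2 and 5, WT HDW 1 and 4, GCN2KO unwounded 3, 4 and 5, and GCN2KO HDW 4 and 5), with adjusted p of 0.0509 to 0.0842. That of LTB4R2 was lost without WT unwounded replicate 3 (0.0526), GCN2KO HDW replicate 2 (0.059) or both GCN2KO libraries that stood apart (0.0587).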

How the results depend on the processing

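For the 10 genes, 842 of 894 alternative values kept their sign and their side of the threshold, 23 passed where the reported value had not, 8 no longer passed and 21 changed sign, all of them values that had not passed. Without a filter on low counts 31192 to 34603 genes were tested, and DE genes numbered 2132 higher for GCN2KO against WT unwounded, 1950 higher after HDW, 397 lower for HDW in WT, and 114 higher and 85 lower for HDW in GCN2KO cells, where all 20 libraries in one fit gave 54 lower. The number of the 10 genes whose interaction passed upward was 2 with DESeq2, with library size alone and with no filter, 3 without both GCN2KO libraries that stood apart, and 0 to 2 without single libraries. Leaving out single libraries gave 0 to 1 passing upward for GCN2KO against WT unwounded, 0 to 2 DE genes downward for HDW in WT cells, 0 to 1 passing downward for HDW in GCN2KO cells, and 20 to 59 genes called DE downward over all genes for HDW in GCN2KO cells, where it was 59 without HDW replicate 5 and 20 without unwounded replicate 5.

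Values near 0 that changed sign without single libraries were PTGS1 (-0.092 to 0.23) and ALOX12B (-0.0197 to 0.32) for GCN2KO against WT unwounded and PTGS2 (-0.037 to 0.14) after HDW. For HDW in WT cells they were ALOX5AP (-0.032 to 0.19), PLA2G4F (-0.13 to 0.087) and CBR3 (-0.039 to 0.22). For HDW in GCN2KO cells they were PTGES (-0.135 to 0.073), ALOX5AP (-0.10 to 0.23), LTA4H (-0.059 to 0.057, and 0.012 with library size alone), GGT1 (-0.17 to 0.017), PLA2G4F (-0.073 to 0.22, and -0.033 without both libraries), SLCO2A1 (-0.32 to 0.13) and EIF2AK4 (-0.061 to 0.002). For the interaction they were ALOX5AP (-0.21 to 0.14), ALOX15B (-0.0063 to 0.56), PLA2G4F (-0.069 to 0.22, and -0.0297 without both libraries) and EIF2AK4 (-0.019 to 0.051). The cause was not tested.

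Libraries with the same replicate number in 2 groups did not deviate together: their correlations ran from -0.33 to 0.13, and 0 to 2 of 5 libraries correlated best with their own number. With the number as a replicate block, 1239 genes passed upward and 882 downward for HDW in GCN2KO cells, in place of 1880 and 1706, and 0 of the 10 passed downward, ALOX12B being at -0.68 (adjusted p = 0.0705, edgeR); no other call of the 10 changed with the block. With the longest transcript as length, TPM in unwounded WT cells ran from 0.48 for ALOX12 to 876 for PTGES. Depth limits ALOX5 in GCN2KO cells and ALOX12, which had 2 to 27 raw counts in a library.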
